A study of Mus musculus with 35 samples.

Results

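The genes described here are 10 regulators and secreted products of the supporting cells of the gonads: *Foxl2*, *Sox9*, *Dmrt1*, *Amh*, *Inha*, *Inhba*, *Nr5a1*, *Wt1*, *Gata4* and *Fst*. They were taken by symbol from a list of granulosa and Sertoli cell genes, with no measured value in the rule. Earlier results of these data were known when the genes were chosen. Each symbol was mapped to the features that the authors counted. The 10 genes correspond to 11 of the 55356 features, because *Inhba* was counted as a pair of separate loci. All 11 features passed the filter on low counts, among 29911 features tested, and *Dmrt1* passed through its counts in testis alone.

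The libraries came from adult C57BL/6J mice, with no treatment or genetic change given in the labels. Brain, cerebellum, heart and colon of each sex, the female gonad (ovary) and the male gonad (testis) form 10 groups of 3 RNA-seq libraries, except the male heart with 2, which gives 29 libraries. Ribosomal RNA was depleted before stranded libraries were made, and Iso-seq, which reads full-length cDNA, was run on RNA of the same tissues to build the annotation. The sources used here do not say whether libraries came from separate animals, so P-values measure the spread between these libraries. Levels are given as FPKM, the reads on a feature scaled to its exon length in kilobases and to the total count of the library.

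Granulosa cells surround the oocyte in the ovary, and Sertoli cells enclose the germ cells in the testis. Both arise from the same bipotential precursors of the early gonad, which depend on *Nr5a1*, *Wt1* and *Gata4*. *Sox9* and *Dmrt1* hold the Sertoli fate and *Foxl2* holds the granulosa fate. Supporting cells of both kinds secrete anti-Müllerian hormone (*Amh*) and inhibin, a dimer of the *Inha* product with a beta subunit such as that of *Inhba*. Activin, a dimer of beta subunits, opposes inhibin in the control of follicle-stimulating hormone, and follistatin (*Fst*) binds and neutralizes activin.

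The total count of a library ranged from 11742417 to 36194255, and from 18035978 to 28081608 in ovary and from 28459258 to 30925443 in testis. The sex labels held for *Xist*, whose lowest level in the female libraries was 10.9 FPKM and whose highest level in the male libraries was 0.0948 FPKM. Of 14 listed granulosa genes, 14 had a mean of at least 1 FPKM in ovary, 4 in testis and 6 to 7 in the somatic tissues, and of 14 listed Sertoli genes 13 did so in testis, 8 in ovary and 4 to 6 in the somatic tissues. The makeup of the gonads differed widely. The summed level of 8 male germ cell markers was 20230 to 24370 FPKM in testis and 5.74 to 11.9 FPKM in ovary. In these bulk samples, fewer cells of a type and less RNA per cell cannot be told apart.

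Between the gonads, 9 of the 11 features were higher in ovary and 2, *Sox9* and *Dmrt1*, were lower (edgeR quasi-likelihood test, Benjamini-Hochberg adjusted P under 0.05). The direction of *Dmrt1* was fixed by the filter, which it passed through testis alone, so that its call is no result and *Sox9* is the member whose lower level was tested. Over all features tested, 64.3% were called in this comparison, 26.5% as higher in ovary and 37.8% as lower. The median log2 difference, ovary minus testis, was 2.99 over the 11 features and -0.15 over all features tested. The 3 ovary libraries and the 3 testis libraries did not overlap for any of the 11 features, as for 70.2% of all features tested. Without normalization factors the median over all features moved to 0.38, and the calls over all features changed from 7919 higher and 11313 lower to 11522 higher and 9082 lower. The members kept 9 higher and 2 lower on that scale. Several other marker lists were higher in ovary, with 4 of 4 fibroblast markers higher (median log2 difference 1.03), 3 of 3 endothelium markers (2.22), 4 of 5 mesothelium and surface epithelium markers (3.27) and 2 of 4 macrophage markers (0.42). The steroidogenic markers were split, with 3 of 6 higher and 3 lower (0.24), and of 4 oviduct markers 0 were higher and 2 lower (-2.57). The endothelium markers summed to 42.7 to 65.1 FPKM in ovary and to 5.76 to 7.49 FPKM in testis. The part of tissue makeup in the members' differences was not tested.

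**Figure D1:**
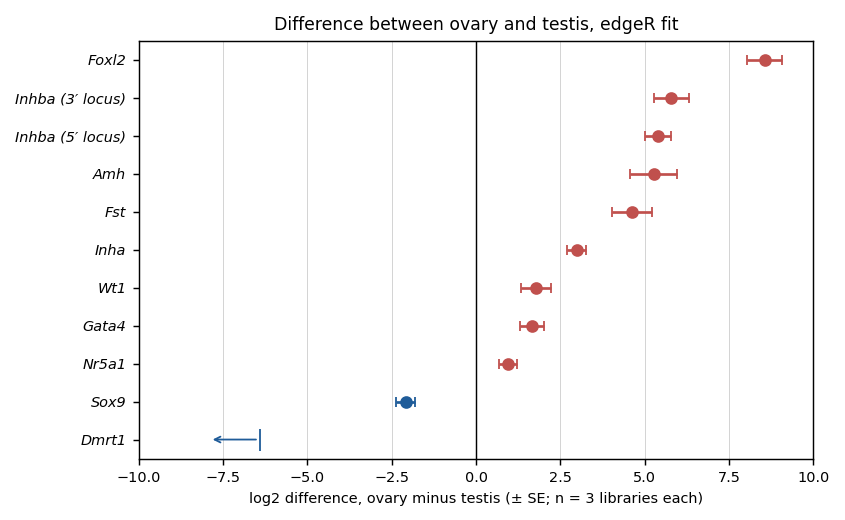
Log2 difference (ovary minus testis) of each feature from the edgeR fit, with the standard error as a bar and 3 libraries per gonad. *Dmrt1* had no count in ovary and is drawn as a bound with an arrow, from a level in testis at least 85.6 times that of 3 counts in an ovary library. A reader should see that *Foxl2* has the largest difference towards the ovary, 8.56, and that *Sox9* and *Dmrt1* lie on the testis side.

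*Foxl2* encodes a forkhead factor of granulosa cells and is a single-exon gene (ENSMUSG00000050397, GRCm38.p6 chr9:98955288-98958543, plus strand). Its level was 35.2, 53.9 and 45.3 FPKM in the 3 ovary libraries and 0.119, 0.00993 and 0.0999 FPKM in the 3 testis libraries, the latter resting on 11, 1 and 10 counts. Every ovary library was far above every testis library, and the log2 difference was 8.56 ± 0.52 (SE, adjusted P = 2.16e-11, edgeR). After ovary, the tissue means were 0.499 ± 0.152 FPKM in cerebellum (SD, n = 6), 0.138 ± 0.120 in brain (SD, n = 6) and 0.0762 ± 0.0581 in testis (SD, n = 3), and these neighbours overlapped. The gene had 1 count in the 5 heart libraries together and none in the 6 colon libraries, which places ovary at least 448-fold above a level of 3 counts in colon. The cerebellar signal was present in each of 6 libraries, at 28 to 56 counts.

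*Foxl2os*, a noncoding gene on the opposite strand that shares 12 exon bases with *Foxl2*, followed the same tissues. It was at 11.4 ± 1.05 FPKM in ovary (SD, n = 3), 0.191 ± 0.0350 in cerebellum (SD, n = 6) and 0.00654 ± 0.0113 in testis (SD, n = 3), with no count in heart or colon. Whether the counting used the strand is not stated, so reads on the shared bases cannot be told apart.

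*Sox9*, the SRY-related factor that starts and keeps Sertoli differentiation, was counted at Iso-seq locus PB.2360 (chr11:112782223-112786123, plus strand, 3 exons). It is also known from astrocytes and from the crypts of the intestine. It stood at 1.55, 1.49 and 2.18 FPKM in ovary and at 4.46, 5.94 and 4.01 FPKM in testis. The gonads did not overlap, and the log2 difference was -2.09 ± 0.28 (SE, adjusted P = 4.52e-07, edgeR). The testis was not its highest tissue: cerebellum had a mean of 35.4 ± 7.73 FPKM (SD, n = 6), and brain followed at 23.0 ± 3.64 (SD, n = 6). The ranges of these neighbours overlapped, from 23.7 to 43.9 FPKM in cerebellum and from 19.5 to 29.6 FPKM in brain. Colon had 2.35 ± 0.568 FPKM (SD, n = 6) and heart 1.53 ± 0.783 FPKM (SD, n = 5), and both overlapped with ovary. The summed level of 4 astrocyte markers was highest in the same tissues, at 573 to 733 FPKM in cerebellum and 301 to 440 FPKM in brain, against 39.3 to 52.3 FPKM in testis and 6.40 to 12.5 FPKM in ovary. In testis nearly all of that sum was *Aldh1l1*, at 41.4 FPKM, while *Gfap* was at 0.330, *Aqp4* at 0.0211 and *Slc1a3* at 2.79 FPKM. Their part in the *Sox9* level was not tested.

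*Dmrt1* encodes a DM-domain factor of Sertoli cells and spermatogonia (ENSMUSG00000024837, chr19:25505618-25604329, plus strand, 3 transcripts). It had 552, 692 and 438 counts in the testis libraries, or 7.48, 8.63 and 5.49 FPKM. In the other 26 libraries it had no count. Against the level that 3 counts would give in any of those libraries, even the lowest testis value was at least 55.7-fold higher, and the floor of 3 counts covers counting error only. Its tests against testis are not given as results, since it passed the filter through its testis counts and had to differ.

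The ratio of *Foxl2* to *Sox9* in FPKM set the granulosa factor against the Sertoli factor within each library. It was 22.6, 36.0 and 20.8 in the ovary libraries and 0.0266, 0.00167 and 0.0249 in the testis libraries. The lowest ratio in testis came from the library with 1 *Foxl2* count.

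**Figure D2:**
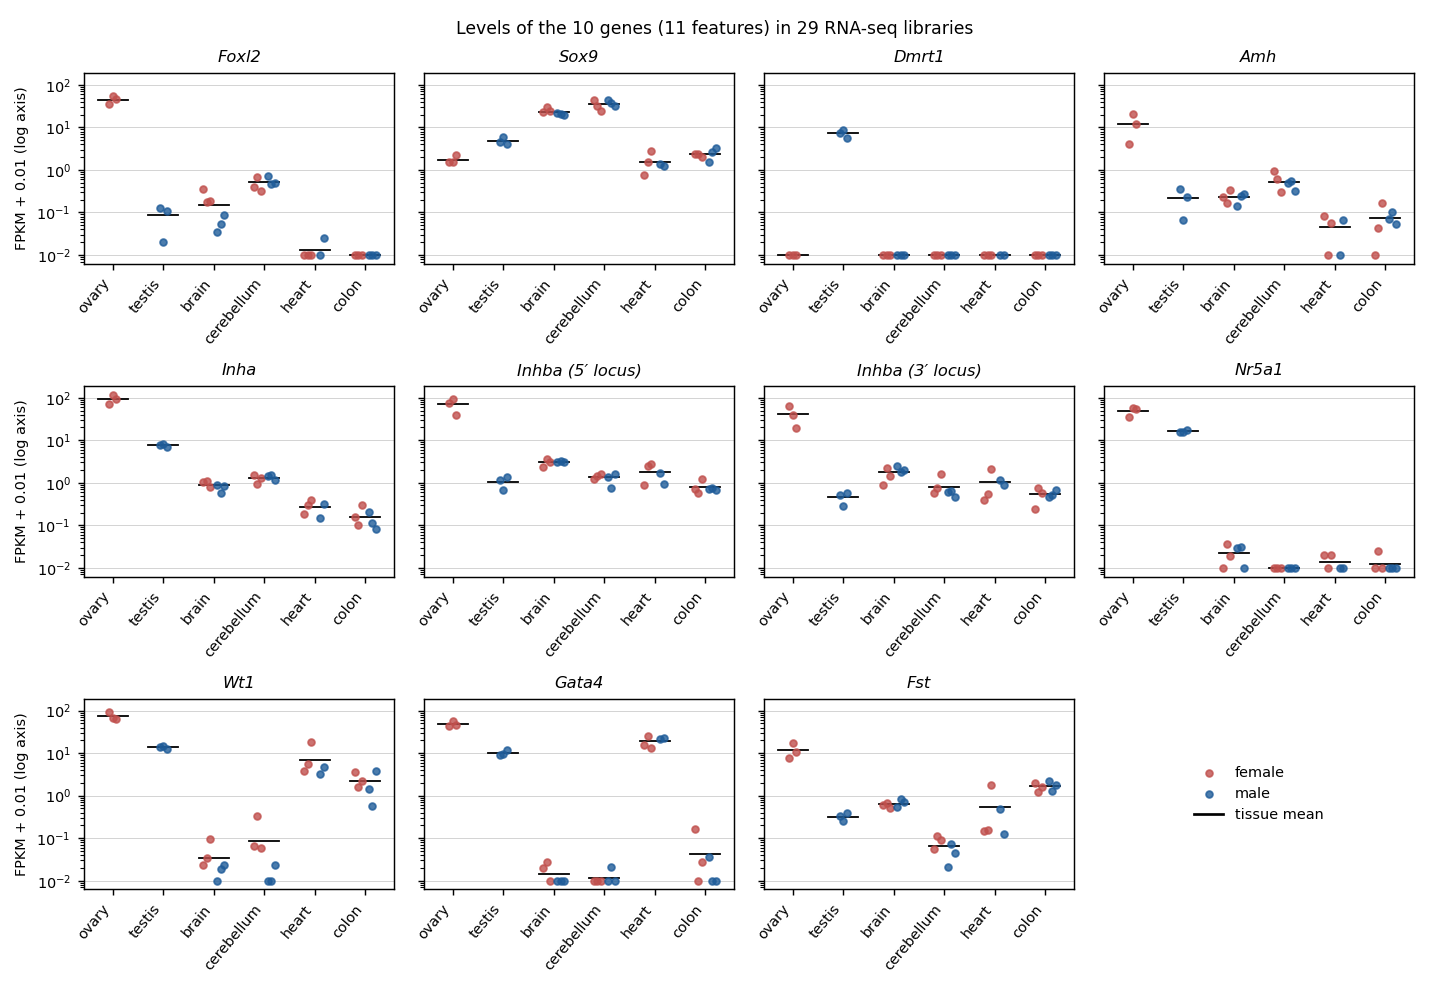
Level of each feature in every library, as FPKM plus 0.01 on a log axis, by tissue, with female libraries in red, male libraries in blue and the tissue mean as a black line. A reader should see that 9 features were highest in ovary, *Dmrt1* in testis and *Sox9* in cerebellum, and that *Wt1*, *Gata4* and *Nr5a1* were the members with a testis mean above 10 FPKM.

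Among the secreted products, *Amh* (PB.1157, chr10:80805240-80807720, plus strand, 5 exons) encodes the hormone that removes the Müllerian ducts in male fetuses and that growing follicles release in the adult. It had 127, 877 and 597 counts in ovary, or 4.03, 20.2 and 12.2 FPKM. In testis it had 17, 3 and 12 counts, or 0.342, 0.0556 and 0.224 FPKM. The log2 difference was 5.26 ± 0.69 (SE, adjusted P = 3.40e-07, edgeR), and no ovary library overlapped with testis. The ovary libraries themselves were widely spread, with the lowest in replicate 1. Cerebellum followed with 0.524 ± 0.233 FPKM (SD, n = 6), and brain with 0.225 ± 0.0722 (SD, n = 6) overlapped with cerebellum and with testis. *Sf3a2*, a splicing factor gene, ends 315 bases upstream of the *Amh* locus on the same strand and was expressed in all tissues. It had 24.6 ± 5.48 FPKM in ovary (SD, n = 3), 18.9 ± 1.08 in testis (SD, n = 3) and 14.8 ± 2.45 in cerebellum (SD, n = 6), and its part in the low *Amh* values was not tested.

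*Inha*, the alpha subunit of inhibin, had the highest mean FPKM of the 11 features in ovary, although *Wt1* and the 5′ locus of *Inhba* were above it in ovary replicate 1. It was at 71.0, 117 and 92.1 FPKM in ovary and at 7.91, 8.09 and 6.94 FPKM in testis, with 1115 to 1307 counts in the testis libraries. The groups did not overlap, and the log2 difference was 2.99 ± 0.28 (SE, adjusted P = 8.12e-10, edgeR). Cerebellum had 1.30 ± 0.243 FPKM (SD, n = 6), brain 0.860 ± 0.188 (SD, n = 6), heart 0.258 ± 0.101 (SD, n = 5) and colon 0.148 ± 0.0804 (SD, n = 6). The locus (PB.272, chr1:75507172-75512397, plus strand) spans 5226 exon bases, against 1475 in GENCODE, since 1 of its 3 Iso-seq transcripts is a single exon of 3190 bases and another runs to 75512397, past the GENCODE end at 75510366. Over the GENCODE exon length the ovary mean would be 331 FPKM in place of 93.5. *Obsl1*, 1440 bases from the locus on the opposite strand, was at 22.3 ± 3.38 FPKM in ovary and 4.18 ± 0.216 in testis (SD, n = 3).

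*Inhba*, the beta A subunit shared by inhibin and activin, was split into a 5′ locus (PB.3041, chr13:16014466-16027215, plus strand, 3 exons) and a 3′ locus (PB.3042, chr13:16028632-16031608, 1 exon). Both lie within the single GENCODE gene, chr13:16011851-16031621. The 5′ locus was at 77.1, 94.5 and 38.7 FPKM in ovary and at 1.16, 0.671 and 1.33 FPKM in testis. The 3′ locus was at 64.0, 38.5 and 19.4 FPKM in ovary and at 0.519, 0.282 and 0.579 FPKM in testis. Both features thus separated the gonads, with log2 differences of 5.41 ± 0.39 (SE, adjusted P = 6.25e-12, edgeR) and 5.79 ± 0.51 (SE, adjusted P = 3.82e-10, edgeR). The ratio of the 5′ to the 3′ locus was 1.205, 2.455 and 1.999 in the ovary libraries and 2.24, 2.38 and 2.30 in the testis libraries, so the ovary library of replicate 1 stood below the others.

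Brain was the next tissue for *Inhba*, with 3.07 ± 0.436 FPKM at the 5′ locus and 1.82 ± 0.608 at the 3′ locus (SD, n = 6), and it overlapped with heart, at 1.74 ± 0.839 and 1.01 ± 0.663 (SD, n = 5). Cerebellum, testis and colon were lower and overlapped with their neighbours. *B230303A05Rik*, which lies on the opposite strand and overlaps the span of the 5′ locus without shared exon bases, was highest in brain, at 1.43 ± 0.285 FPKM (SD, n = 6). *Gm48444*, which overlaps both loci in the same way, was highest in ovary. It was at 1.28 ± 0.856 FPKM there, on 9 to 23 counts, and at 0.0598 ± 0.0614 FPKM in testis (SD, n = 3).

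Counted over both *Inhba* loci, the level of *Inha* exceeded that of *Inhba* in every gonad library, 1.04, 2.04 and 3.55 times in ovary and 10.7, 19.5 and 8.31 times in testis. These ratios use the Iso-seq exon lengths and would rise with the shorter GENCODE length of *Inha*.

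*Fst*, the activin antagonist (ENSMUSG00000021765, chr13:114452290-114458951, minus strand, 6 transcripts), was at 7.66, 17.1 and 10.5 FPKM in ovary and at 0.314, 0.240 and 0.376 FPKM in testis. The log2 difference was 4.62 ± 0.59 (SE, adjusted P = 2.09e-07, edgeR). Colon came next, at 1.67 ± 0.406 FPKM (SD, n = 6), above and apart from brain at 0.637 ± 0.123 (SD, n = 6), and cerebellum was lowest at 0.0565 ± 0.0325 (SD, n = 6). The ratio of *Inhba* to *Fst* was 8.94, 3.37 and 2.49 in the ovary libraries and 2.35, 1.73 and 2.22 in the testis libraries. *Gm47040*, on the opposite strand with 115 shared exon bases, was at 1.49 ± 0.691 FPKM in ovary (SD, n = 3) and at most 0.0982 FPKM on average elsewhere.

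The 3 factors that the early gonad uses in both sexes were above 9 FPKM in every library of both gonads. *Nr5a1*, the nuclear receptor of steroidogenic and supporting cells (PB.6707, chr2:38692654-38714661, minus strand, 9 Iso-seq transcripts), was at 35.7, 56.4 and 54.5 FPKM in ovary and at 15.8, 15.6 and 17.7 FPKM in testis. Its log2 difference was 0.95 ± 0.26 (SE, adjusted P = 0.00380, edgeR), and 1.58 without normalization factors. It was nearly confined to the gonads, which held 99.97% of its summed tissue means, and 0 of 6 cerebellum libraries had a count. Its lowest testis value was at least 397-fold higher than 3 counts would give in cerebellum. In brain, heart and colon it had at most 3 counts in a library, or 0.0262 FPKM. *Nr5a1os*, with 136 exon bases shared on the opposite strand, had 1.12 ± 0.502 FPKM in ovary and 0.420 ± 0.141 FPKM in testis (SD, n = 3). Steroid-producing cells express *Nr5a1* too, and the summed level of 6 of their markers was 2179 to 3327 FPKM in ovary and 923 to 1240 FPKM in testis. The difference of the sums lay mainly in *Cyp11a1*, with a mean of 1586 FPKM in ovary and 250 FPKM in testis, and *Hsd3b1*, with 902 and 82.8 FPKM, while of the 6 markers 3 were called higher in ovary and 3 lower. Their part in the difference was not tested.

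*Wt1*, the zinc finger factor of the early gonad, kidney and mesothelium, was at 90.7, 68.3 and 62.5 FPKM in ovary and at 14.2, 14.3 and 12.5 FPKM in testis (PB.6929, chr2:105126468-105173606, plus strand). The groups did not overlap, and the log2 difference was 1.78 ± 0.45 (SE, adjusted P = 0.00129, edgeR). *Wt1os*, on the opposite strand with 43 shared exon bases, was at 4.23 ± 1.58 FPKM in ovary and 0.769 ± 0.0933 in testis (SD, n = 3).

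*Wt1* is known for forms that differ in 3 amino acids, Lys-Thr-Ser, between zinc fingers, through a choice of splice donor, and for a 51-base exon that may be skipped. The sequences below come from GENCODE M21 transcripts (GRCm38.p6, chromosome 2, plus strand) and show which forms the Iso-seq models hold. The exon at chr2:105169926-105170018 (93 bases) is printed with the 9 bases of the longer donor in capitals, and its shorter form ends at 105170009. The alternative exon at chr2:105144142-105144192 is printed in capitals between the ends of its neighbouring exons, followed by the junction without it.
Wt1 exon with the longer donor: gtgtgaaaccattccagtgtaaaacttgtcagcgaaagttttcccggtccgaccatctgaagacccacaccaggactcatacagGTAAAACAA
Wt1 exon with the shorter donor: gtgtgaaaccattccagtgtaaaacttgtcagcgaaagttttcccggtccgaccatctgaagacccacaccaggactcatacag
Wt1 with the alternative exon: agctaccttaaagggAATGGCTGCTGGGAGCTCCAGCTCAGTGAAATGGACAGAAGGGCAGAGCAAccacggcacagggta
Wt1 without the alternative exon: agctaccttaaagggccacggcacagggta

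All 3 Iso-seq transcripts of *Wt1* used the longer donor and so contained the capital letters of the first sequence. Among the 9 GENCODE transcripts, 5 used the longer donor and 2 the shorter, 1 stopped inside the exon at 105170011, and 1 did not cover the exon. The alternative exon was in 1 Iso-seq transcript and skipped in another, and the third starts downstream of it. The counts are per locus, so the share of each form in a tissue was not measured, and the annotation does not state the tissue of a transcript.

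*Gata4*, a zinc finger factor that acts with *Nr5a1* and *Wt1* in the gonad and is needed for the heart, was at 44.0, 57.1 and 47.0 FPKM in ovary and at 9.24, 9.47 and 11.6 FPKM in testis (PB.3788, chr14:63198916-63271885, minus strand). The log2 difference was 1.66 ± 0.35 (SE, adjusted P = 2.64e-04, edgeR). Heart had 19.6 ± 5.16 FPKM (SD, n = 5), from 13.5 to 25.8, which lay between ovary and testis without overlap with either. That separation is stated for FPKM alone, which uses no TMM factors. The factors were 0.604 to 1.116 in heart, 1.297 to 1.449 in ovary and 0.8555 to 0.8737 in testis. Brain, cerebellum and colon had at most 7 counts in a library. Its 3 Iso-seq transcripts began at 63271885, 63245485 and 63241318. The first 2 have separate first exons, and the third begins inside the second exon of the others.

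The ratio of *Wt1* to *Nr5a1* was 2.54, 1.21 and 1.15 in the ovary libraries and 0.894, 0.920 and 0.707 in the testis libraries. The ovary library of replicate 1 again stood apart. It also had the lowest *Foxl2*, *Amh*, *Inha*, *Nr5a1*, *Gata4* and *Fst* of the 3, and the highest *Wt1* and *Inhba* 3′ level. In that library the summed level of 5 mesothelium and surface epithelium markers was 396 FPKM, against 270 and 225 FPKM in the other ovary libraries. Oocyte markers without *Gdf9* summed to 9.25 FPKM, against 23.9 and 26.6 FPKM. The steroidogenic markers, at 2179 FPKM against 2858 and 3327, were lowest in the library with the lowest *Nr5a1*. The fibroblast markers (559 against 692 and 747 FPKM), the endothelium markers (42.7 against 53.5 and 65.1 FPKM) and the macrophage markers (84.6 against 126 and 108 FPKM) were lowest there too, while male germ cell markers were highest (11.9 against 5.74 and 6.17 FPKM). *Gdf9* was left out because its feature was at 22.2 FPKM or more in every library, and its span overlaps that of *Uqcrq* by 286 bases. The part of these cell types in the spread was not tested, and without this library the count of members called between the gonads was still 9 higher and 2 lower.

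Other genes of the supporting cell pathways were taken from lists, chosen with earlier results of these data known. Over all features tested, 26.5% were higher in ovary than in testis and 37.8% lower, with a median log2 difference of -0.15. Of 14 granulosa genes, 12 were higher in ovary than in testis, 0 were lower and 2, *Irx5* and *Kitl*, were not called, with a median log2 difference of 3.35. The largest differences were those of *Esr2*, the beta oestrogen receptor, at 8.23 ± 0.69 (SE), of *Irx3*, an Iroquois homeobox gene, at 7.29 ± 0.88, and of *Nr5a2*, a nuclear receptor of ovulation and luteinization, at 7.27 ± 0.58. Of 14 Sertoli genes, 10 were lower in ovary, 2 were higher and 2 were not called, with a median of -2.84. *Tsx* (-8.87 ± 0.79), counted at a locus joined with *Gm26992*, *Cst9* (-8.25 ± 0.57), a cystatin, and *Ptgds* (-7.18 ± 0.62), a prostaglandin D2 synthase, had the largest differences towards testis. *Gdnf*, a growth factor for spermatogonial stem cells, was higher in ovary (1.07 ± 0.46). The count of Sertoli genes higher in ovary fell from 2 to 1 in 5 of the 6 fits that left out a gonad library (all but ovary replicate 1), with RLE factors and with the replicate number as a block. Which of the 2 lost its call was not recorded, so it may be *Gdnf*.

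Among 18 genes of activin, inhibin and AMH signalling, 16 were tested. Of these, 10 were higher in ovary, 2 lower and 4 not called (median 0.91), beside 26.5% higher and 37.8% lower over all features. *Smad3*, an effector of activin receptors, led with 2.70 ± 0.21 (SE), followed by *Inhbb*, the beta B subunit, with 2.38 ± 0.40, and *Smad5*, an effector of BMP and AMH receptors, with 2.06 ± 0.13. The lower genes were *Amhr2*, the AMH receptor (-0.69 ± 0.26), and *Fstl3*, a follistatin-like antagonist (-0.68 ± 0.25). In FPKM, which uses no normalization factors, the mean of *Amhr2* was close in the gonads, 50.9 ± 5.18 FPKM in ovary and 52.7 ± 2.40 FPKM in testis (SD, n = 3), while its ligand *Amh* was at 12.1 and 0.207 FPKM. *Inhbb* stood at 29.7 ± 10.8 FPKM in ovary and 3.68 ± 0.409 FPKM in testis (SD, n = 3), and in testis it was above *Inhba*, which was at 0.663 ± 0.220 FPKM over both loci.

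Of 12 partners of the gonadal factors, 8 were higher in ovary, 2 lower and 2 not called (median 1.29). *Lhx9* (3.22 ± 0.85, SE), *Emx2* (2.67 ± 0.36) and *Tcf21* (2.62 ± 0.38), transcription factors of the early gonad and its stroma, led towards the ovary. *Nr0b1*, a repressor that binds NR5A1, was lower in ovary (-2.02 ± 0.56), as was *Zfpm1* (-0.77 ± 0.25), a GATA cofactor. The lower calls of the signalling and partner lists depended on the fit. Without normalization factors 0 genes of either list were lower, without a filter 0 and 1 were, and with the block by library code 1 and 1 were. Leaving out 1 gonad library left 1 lower signalling gene in 4 of 6 fits (without ovary replicate 1 or 3 or testis replicate 1 or 2), and 1 lower partner gene without ovary replicate 3.

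**Figure D3:**
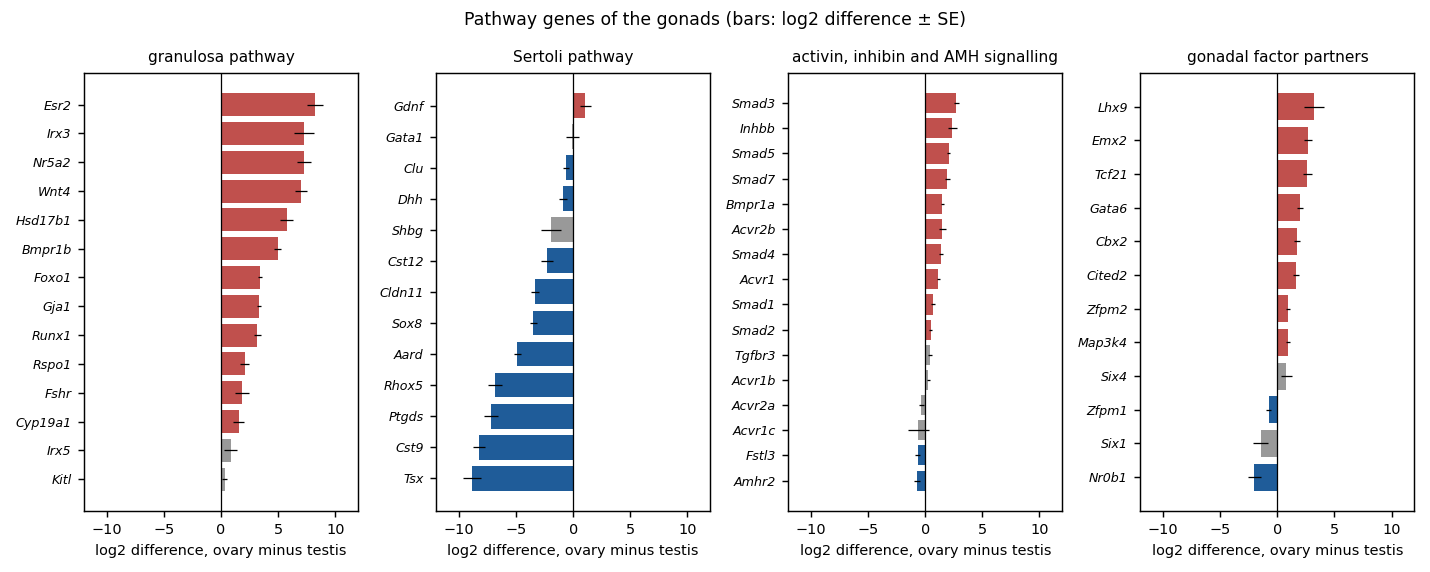
Log2 difference (ovary minus testis) of the tested genes of each list except 1 Sertoli gene that is not reported, with the standard error as a line, red for genes called higher in ovary, blue for genes called lower and grey for genes not called. A reader should see that the called granulosa genes all lie on the ovary side, from 1.53 for *Cyp19a1* to 8.23 for *Esr2*, and that 10 Sertoli genes lie on the testis side.

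Against the somatic tissues, taken as the mean of the fitted log levels of the 8 somatic groups, 9 features were higher in ovary and *Sox9* was lower, where 43% of all features tested were called, 24% as higher and 19% as lower. *Wt1* had a log2 difference of 7.48 ± 0.30, *Inha* of 7.24 ± 0.16, *Amh* of 6.10 ± 0.36, the 5′ locus of *Inhba* of 5.07 ± 0.18, its 3′ locus of 4.98 ± 0.24 and *Fst* of 4.45 ± 0.30, and *Sox9* had -2.51 ± 0.25 (SE, edgeR). For *Foxl2*, *Nr5a1* and *Gata4*, which had no count in some of the 8 groups, no fitted value is given. *Dmrt1* had no count on either side. *Wt1* had at most 25 counts in a library of brain or cerebellum. Its plain means were 73.8 FPKM in ovary and 2.20 FPKM over the 8 somatic groups.

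Testis was called higher on that mean of logs for 6 features, *Foxl2*, *Dmrt1*, *Inha*, *Nr5a1*, *Wt1* and *Gata4*, where 67.3% of all features were called, 40.7% as higher and 26.6% as lower. The direction of *Dmrt1* was again fixed by the filter, and its call was lost with a block by library code (adjusted P = 1, edgeR). Its fitted log2 difference was 11.8 with that block and 12.0 in the main fit, both against groups without a count. No feature was called lower, 0 by edgeR and 0 by DESeq2, and 2 were lower at an unadjusted P under 0.05, *Sox9* and the 3′ locus of *Inhba*, as were 27.6% of all features. *Inha* had 4.25 ± 0.16 (SE, adjusted P = 2.47e-18, edgeR), with 7.65 ± 0.620 FPKM in testis (SD, n = 3). *Foxl2* had an adjusted P of 0.0105 on the mean of logs, in which the colon groups were at 0 and heart had 1 count. As plain means it was lower in testis, at 0.0762 FPKM against 0.160 over the 8 somatic groups. The call rested on 11, 1 and 10 counts in testis and was lost without testis replicate 1 (adjusted P = 0.063, edgeR).

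Each somatic tissue was set against the 3 others, again as a mean of fitted log levels, so that a tissue can be called higher while its mean FPKM, taken without TMM factors, is below the mean of the others. In cerebellum, in heart and in colon 6 of the 11 features were called, a share near that of all features given for each tissue, and in brain 8 were. In brain, 7 features were called higher (*Foxl2*, *Sox9*, *Inha*, both *Inhba* loci, *Nr5a1* and *Fst*) and *Wt1* was lower, where 55.9% of all features were called, 34.9% as higher and 21% as lower. *Sox9* had a log2 difference of 2.17 ± 0.14 (SE, adjusted P = 6.58e-13, edgeR) and the 5′ locus of *Inhba* one of 1.33 ± 0.19 (SE, adjusted P = 1.36e-06, edgeR). As plain means *Foxl2* and *Fst* were lower in brain, at 0.138 against 0.168 FPKM and at 0.637 against 0.740 FPKM. The call of *Nr5a1* rested on at most 3 counts in a brain library and was lost without female brain replicate 2 (adjusted P = 0.059). That of *Fst* was lost without male brain replicate 2 (adjusted P = 0.062), with RLE factors (0.051) and with the groups compared alone (0.058), and that of *Wt1* without male cerebellum replicate 3, the single library of its group with a *Wt1* count (adjusted P = 1).

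In cerebellum, 4 features were higher, *Foxl2*, *Sox9*, *Amh* and *Inha*, and *Wt1* and *Fst* were lower, where 51.8% of all features were called, 32.3% as higher and 19.5% as lower. *Sox9* had 2.83 ± 0.14 (SE, adjusted P = 3.52e-15, edgeR), *Amh* 2.42 ± 0.43 (SE, adjusted P = 3.13e-05, edgeR) and *Inha* 1.82 ± 0.17 (SE, adjusted P = 6.67e-10, edgeR). *Amh* had 39, 27 and 14 counts in the female cerebellum libraries and 16, 22 and 13 in the male ones. These cerebellar levels stayed far below those of ovary, with a highest value of 0.926 FPKM for *Amh* and of 1.53 FPKM for *Inha*.

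In heart, *Gata4*, *Wt1* and the 5′ locus of *Inhba* were higher and *Sox9*, *Amh* and *Inha* lower, where 53.1% of all features were called, 23.6% as higher and 29.5% as lower. The 5′ locus of *Inhba* had a mean of 1.67 FPKM in heart and of 1.72 FPKM in the others. The log2 difference of *Wt1* was 6.19 ± 0.34 (SE, adjusted P = 1.86e-14, edgeR). With the sexes weighted equally, its plain means were 6.525 FPKM in heart and 0.762 FPKM in the others. Among these, *Wt1* had at most 7 counts in a brain library and 25 in a cerebellum library. The calls of the 5′ locus of *Inhba* and of *Inha* were lost without male heart replicate 1 (adjusted P = 0.28 and 0.22), and that of *Amh* without any one of male heart replicate 1, female heart replicates 2 and 3 and female colon replicate 3 (adjusted P = 0.052 to 0.13). The call of the 5′ locus of *Inhba* was also lost without female heart replicate 2 (adjusted P = 0.082) and without normalization factors (log2 difference 0.16, adjusted P = 0.68), and that of *Inha* with the groups compared alone (adjusted P = 0.074).

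*Wt1* in heart was at 3.83, 5.55 and 17.9 FPKM in the female libraries and at 3.18 and 4.75 FPKM in the male libraries. Female heart replicate 3 stood apart, and the heart mean fell from 7.04 ± 6.13 (SD, n = 5) to 4.33 ± 1.04 FPKM (SD, n = 4) without it, with *Wt1* still called higher in heart. In the same library *Fst* was at 1.80 FPKM, against 0.116 to 0.467 FPKM in the other 4 heart libraries, and its heart mean was 0.532 ± 0.722 (SD, n = 5) with it and 0.216 ± 0.168 FPKM (SD, n = 4) without it. The 5 mesothelium and surface epithelium markers, all at 1 FPKM or more on average in heart, summed to 237 FPKM in that library and to 68.1 to 102 FPKM in the other 4. Sums of some other lists were also highest there, but not of all. The Sertoli list ran from 397 to 545 FPKM over the heart libraries. The sum of 4 fibroblast markers was 947 FPKM against 385 to 544 FPKM, that of 4 macrophage markers 171 FPKM against 66.5 to 99.2 FPKM, and that of 6 steroidogenic cell markers 10.2 FPKM against 2.44 to 3.83 FPKM. The male germ cell markers summed to 36.3 FPKM against 17.2 to 33.8 FPKM, the oocyte markers without *Gdf9* to 0.583 FPKM against 0.108 to 0.281 FPKM, and the granulosa list to 91.8 FPKM against 62.3 to 73.1 FPKM. The endothelium markers summed to 95.9 FPKM there, within the 55.9 to 120.0 FPKM of the other 4. Its TMM factor was 1.116, against 0.604 to 0.712 in the other 4. The part of these cell types and of the composition in the *Wt1* and *Fst* values was not tested.

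**Figure D4:**
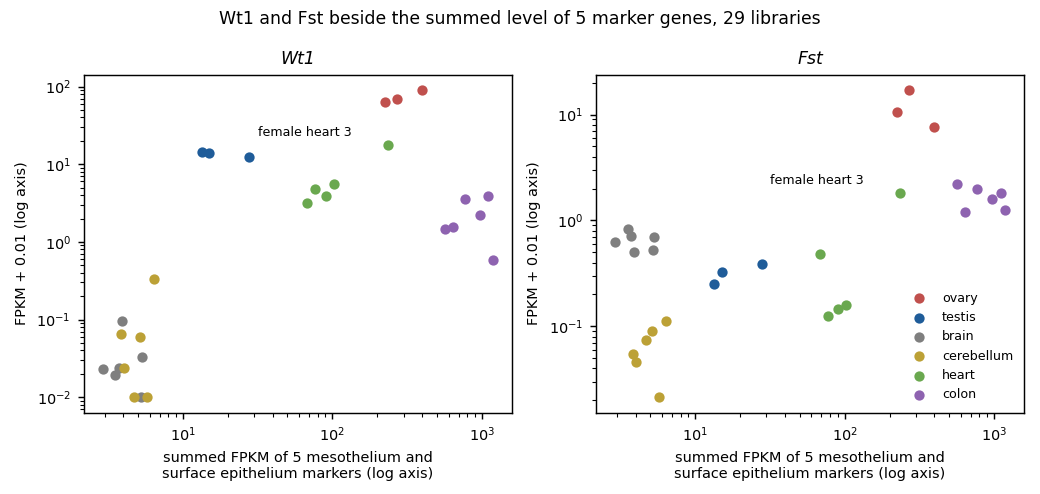
Level of *Wt1* (left) and *Fst* (right), as FPKM plus 0.01 on a log axis, against the summed FPKM of 5 mesothelium and surface epithelium markers on a log axis, with 1 point per library coloured by tissue. A reader should see female heart replicate 3, at 237 FPKM of the markers, above the other heart libraries for both genes, and the ovary libraries at 225 to 396 FPKM.

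In colon, *Wt1* (3.57 ± 0.38, SE, adjusted P = 8.22e-09, edgeR) and *Fst* (2.53 ± 0.31, SE, adjusted P = 5.84e-08, edgeR) were higher and *Sox9*, *Inha* and both *Inhba* loci lower, where 62.1% of all features were called, 30.6% as higher and 31.6% as lower. The mean of *Wt1* was 2.19 FPKM in colon and 2.21 FPKM in the others, where heart was higher. *Wt1* ranged from 0.567 to 3.85 FPKM over the 6 colon libraries and *Fst* from 1.199 to 2.215 FPKM. The same 5 markers summed to 565 to 1184 FPKM in colon, of which *Krt19*, a keratin that the gut epithelium also makes, had 851 FPKM on average.

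No member differed between the sexes in a somatic tissue at an adjusted P under 0.05 (edgeR), where 0.0368% of all features were called in brain (0.0201% higher in males and 0.0167% lower), 0.0301% in cerebellum (0.0167% and 0.0134%), 0.0635% in heart (0.0234% and 0.0401%) and 0.324% in colon (0.0903% and 0.234%). At an unadjusted P under 0.05, 1 of 11 members was found in brain, 1 in cerebellum, 0 in heart and 0 in colon, where 4.83%, 3.06%, 9.65% and 8.85% of all features were. The former was *Foxl2* in brain, with 29, 15 and 16 counts in the female libraries and 2, 5 and 6 counts in the male libraries. The sexes did not overlap, and the log2 difference, male minus female, was -2.17 ± 0.59 (SE, adjusted P = 0.729, edgeR). DESeq2 called it lower in males (adjusted P = 0.0375), where 8 of all 29911 features were called higher and 44 lower. No other member was called by DESeq2 in any of the 4 tissues. In the 6 edgeR fits that left out a brain library, *Foxl2* stayed uncalled. In cerebellum the sexes overlapped for *Foxl2*, with 28 to 56 counts in females and 35 to 43 in males.

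The member of the cerebellum was *Wt1*, with 4, 25 and 4 counts in females and 0, 0 and 1 in males (adjusted P = 1, edgeR). The sex difference of a member was not called as different between the 4 tissues (interaction, edgeR, 0.0167% of all features called), at an unadjusted P under 0.05 for *Foxl2* alone (adjusted P = 0.665) and for 6.77% of all features, and DESeq2 called 0.

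Across the 6 tissues, tau, an index that runs from 0 for even levels to 1 for a gene of a single tissue, was 1 for *Dmrt1*, 0.997 for *Foxl2*, 0.983 for *Amh*, 0.978 for *Inha* and 0.977 for both *Inhba* loci. It was 0.945 for *Fst*, 0.938 for *Wt1*, 0.933 for *Nr5a1*, 0.880 for *Gata4* and 0.811 for *Sox9*. The median over 16560 protein-coding features was 0.680, and the upper quartile 0.866. Of those features, 23.0% were highest in ovary and 25.04% in testis.

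The protein-coding genes whose log2 CPM followed a member most closely over the 29 libraries are given as a description, since the libraries share tissue, depth and composition. *Foxl2* was nearest to *Col11a1* (Pearson r = 0.901) and *Trim75* (0.895), *Amh* to *Zp3* (0.891) and *Trim75* (0.879), and *Inha* to *Gm5862* (0.962) and *Lhcgr* (0.957). *Nr5a1* was nearest to *Cyp11a1* (0.983) and *Figla* (0.983), which mark steroidogenic cells and oocytes. *Sox9* was nearest to *Grik2* (0.986) and *Ntm* (0.981), *Wt1* to *Mfap4* (0.968) and *Naalad2* (0.962), *Gata4* to *Unc45b* (0.956) and *Akr1b3* (0.953), and *Fst* to *Pdgfc* (0.921) and *Adamts19* (0.905). Both *Inhba* loci were nearest to *Sox4* (0.920 for the 5′ locus) and *Evc2* (0.908). For *Dmrt1* the measure separates little, since 908 features had r over 0.95.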

How the data were processed

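Counts were used as the authors deposited them: one table of whole-number counts per gene for 29 RNA-seq libraries. The submitters' processing notes list FastQC 0.11.8, MultiQC 0.9, HISAT2 2.0.5, featureCounts 1.6.3 and the mm10 build (GRCm38), without their roles. The study's methods name STAR and another featureCounts version for human data taken from elsewhere. The features are Iso-seq loci plus ENSEMBL genes that these did not overlap. Whether reads were assigned by strand is not given in the sources used here. Genes were tested with edgeR 4.0.16 (TMM factors, filterByExpr by group with a minimum count of 10, 1 quasi-likelihood fit over 29 libraries with a mean per tissue and sex), with Benjamini-Hochberg adjustment across the 29911 features tested and a threshold of 0.05. FPKM was computed from the count, the library total and the union of exons in the deposited annotation. The script was tested on simulated counts. No library pair within a group was identical among 28 pairs. DESeq2 1.42.0, other scalings, no filter, the groups compared alone, blocks by replicate number or library code, and each library left out were the alternatives. For the replicate numbers, 5 of 126 pairs of libraries had a correlation of deviations over 0.1, with pairs of a female and a male library included. For the library code within a sex, 4 of 53 pairs did, with a highest value of 0.223. These values cannot show whether tissues came from the same animals. Genes named are the members, genes near them, the 2 nearest in pattern and the largest called differences in each pathway list, chosen by symbol. A gene near a member shares exon bases with it or lies within 2000 bases, and not all such genes are named. *Irx5*, *Kitl* and *Cyp19a1* were named after their values were seen. The values of 1 listed Sertoli gene are not reported here. The members and lists were chosen with earlier results of these data known. Floors of 3 counts cover counting error only. The SE of a log2 difference is its size divided by the square root of the F statistic of its test.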

Additional observations from a re-analysis of the deposited data

Results flagged for a closer look

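In 38 groups of a feature and a tissue with 4 to 10 libraries, 10 had a single library whose gap to the nearest other was large against the range of the group (Dixon's criterion), and chance gives about 1 in 20 such groups where values are normally distributed. A single count against zeros meets the criterion by construction, so the number of flags cannot be set against that rate.

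Female heart replicate 3 stood out for *Wt1*, at 17.88 FPKM with the next library at 5.55, and for *Fst*, at 1.797 FPKM with the next at 0.467. *Wt1* also stood out in female cerebellum replicate 2, at 0.3244 FPKM (25 counts, next 0.0552 FPKM), and in female brain replicate 3, at 0.08549 FPKM (7 counts). The 3′ locus of *Inhba* was at 1.6 FPKM in female cerebellum replicate 3 (129 counts, next 0.759 FPKM), and its 5′ locus at 1.189 FPKM in female colon replicate 3 (27 counts, next 0.759 FPKM). *Gata4* was at 0.152 FPKM in female colon replicate 1 (7 counts).

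The other flags rested on 1 count each: *Foxl2* in male heart replicate 2 (0.01489 FPKM), *Nr5a1* in female colon replicate 2 (0.01458 FPKM) and *Gata4* in male cerebellum replicate 2 (0.01078 FPKM).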

How the results depend on the processing

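Of 534 alternatives of the counts of members and of the highest tissue means, 497 stayed within a set margin. For a count the margin was 1.5 times, within which single calls can change. For a mean it was the SD over the libraries. With DESeq2, 1 member feature was lower in ovary than in testis, where 10743 of all 29911 features were. In brain, cerebellum and colon against the other somatic tissues 2, 5 and 7 were lower, where 8463, 7693 and 9989 of all features were. In male brain 1 was lower, where 44 of all features were. In cerebellum 4 were lower with RLE factors (6594 of all 29911 features) and 4 with the groups compared alone (6597 of 25741). In testis against the somatic tissues 2 were lower without normalization factors (8702 of all 29911 features) and 2 without a filter (8789 of 45451). Leaving out 1 library gave 0 to 2 lower in testis, 0 to 1 lower in brain, 2 to 4 lower in cerebellum and 1 to 3 lower in heart. The cause of these changes was not tested. Of 104 alternatives of the pathway list counts, 86 stayed within 1.5 times and 18 were lower.

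Highest tissue means in TPM were 63.37 for *Foxl2*, 58.8 for *Sox9*, 12.49 for *Dmrt1*, 132.2 for *Inha*, 101.3 for the 5′ locus of *Inhba*, 68.89 for *Nr5a1*, 107 for *Wt1* and 70.33 for *Gata4*. With TMM library sizes they were 33.58 FPKM for *Foxl2*, 70.18 for *Inha*, 36.72 for *Nr5a1*, 54.47 for *Wt1* and 36.91 for *Gata4*. With GENCODE exon lengths they were 21.38 FPKM for *Sox9*, 331.2 for *Inha*, 16.92 for the 5′ locus of *Inhba* and 35.78 for *Wt1*.

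The replicate block by title number changed no count of members by over 1.5 times. With the replicate block by library code 2 features were lower in testis than in the somatic tissues, where 7410 of all 29911 features were. *Dmrt1* lost its call there (adjusted P = 1, edgeR), at a fitted log2 difference of 11.8 against 12.0 in the main fit. The log2 sex differences in brain turned to 0.0491 for *Amh* and -0.48 for *Fst*.

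Of single features, uncalled values turned direction when a library was left out. The log2 difference of *Fst* in testis ran from -0.34 to 0.0423 (positive without female heart replicate 3 or testis replicate 2), and the sex differences in brain from -0.31 to 0.23 for *Amh*, -0.0386 to 0.32 for the 5′ locus of *Inhba* and -0.24 to 1.46 for *Nr5a1*.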
